A study of Mus musculus with 195 samples.

Results

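The 7 genes described here are regulators of pluripotency and of its loss: Pou5f1, Sox2, Sall4, Utf1, Otx2, Fgf5 and Pou3f1. They were taken by name from 22440 mouse genes with a molecule in any library, and all 7 were detected. Transcripts were counted by BATSeq, a method that reads the 3′ end of an RNA and marks each captured molecule with a random tag (unique molecular identifier, UMI), so that counts are molecules rather than reads and each molecule carries the position of its poly(A) site. Single cells came from 3 populations of 46C cells, a Sox1-GFP mouse embryonic stem cell (ESC) line derived from E14tg2a, and 48 cells were sorted from each. ESC-2i cells were kept without serum in the MEK inhibitor PD0325901 (1 µM) and the GSK3 inhibitor CHIR99021 (3 µM) with LIF (10 ng/ml), and ESC-FCS cells in 10% fetal bovine serum with the same amount of LIF. NSC cells are neural stem cells made from the same line by monolayer differentiation, sorted once for the Sox1-GFP reporter, expanded with EGF and bFGF, and labelled as ES-derived neural progenitor cells in N2 and B27. Sorting by size and DNA content kept small cells in G0/G1 in each population. Separate libraries were made from 48 further ESC-FCS cells (control cells), from 1 pool of 48 ESC-FCS cells made alongside them, and from 2 pools of 48 ESC-2i cells.

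The labels name no replicate culture, so each population is taken as 1 culture of 1 line and no test compares the populations. All intervals below are exact 95% intervals that cover counting error only. The table of genes holds 33 ESC-2i, 33 ESC-FCS and 41 NSC cells. They carry 368362, 226683 and 151877 molecules on genes, with a median cell of 10864, 6375 and 3282. A level below is the molecules of a gene in 10000 molecules on genes, after summing the cells of a group. Where a gene was not seen, the limit is 3 molecules over the group's total, which is 0.0814 per 10000 for ESC-2i, 0.132 for ESC-FCS and 0.198 for NSC. The 24 cell barcodes recur in all 8 library batches of single cells, and the batch barcodes of the 2 ESC-2i pools were also used for the NSC batches. All 48 control cells carry the same pair of batch and cell barcode as an ESC-2i cell, and the ESC-FCS pool carries the batch barcode of 1 ESC-FCS batch. The part of this in the values was not tested. The 11 neural stem cell markers summed to 55.8 molecules per 10000 in NSC against 1.98 in ESC-2i and 1.81 in ESC-FCS, and the 10 embryonic stem cell markers to 34.3 and 24.9 in ESC-2i and ESC-FCS against 0.0658 in NSC. Of the neural list Pax6 was at 0 in NSC. In the ESC-2i pools that list summed to 4.18 per 10000, with Olig1 and Olig2 at 0. Markers of primitive endoderm stayed between 0.244 and 1.38 per 10000 and those of mesoderm between 0.0882 and 0.543 in the 3 populations. Markers of neurons and glia summed to 4.54 per 10000 in NSC, 0.543 in ESC-2i cells and 0.926 in ESC-FCS cells, and to 2.93 in the ESC-2i pools.

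Pou5f1 encodes Oct4, the POU factor that binds DNA together with the HMG-box protein Sox2 at the enhancers of most pluripotency genes, and Sox2 continues in the neural lineage after Oct4 is lost. Sall4 is a zinc finger protein that associates with both, and Utf1 is a chromatin-bound factor whose gene is a direct target of the Oct4 and Sox2 pair. Otx2, the growth factor gene Fgf5 and the POU factor gene Pou3f1 (Oct6) are known to rise when cells leave the naive state held by 2i and enter the formative state that precedes lineage choice.

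The molecules of each gene could be placed on the genome, and 30 bases at the annotated 3′ end of each gene are shown because most counts rest on that end. Each window ends at the site with most molecules there over all libraries, except that of Pou5f1, whose site lies 3 bases past the annotated end, where the window stops. Sequences are those of GENCODE M21 transcripts on GRCm38, written 5′ to 3′ on the strand of the gene, with a poly(A) signal AATAAA or ATTAAA in capitals.
Pou5f1, chr17:35510743-35510772, plus strand: tcttaAATAAAgactgggacacacagtaga
Sox2, chr3:34652428-34652457, plus strand: agataAATAAAtttttgaaatatggacact
Sall4, chr2:168748337-168748366, minus strand: ggtctgaaAATAAAgtgaatgttttccctc
Utf1, chr7:139945079-139945108, plus strand: tcttaccaaAATAAAgattgtgttttctac
Otx2, chr14:48657684-48657713, minus strand: agatatgtataattatATTAAAatggttct
Fgf5, chr5:98276998-98277027, plus strand: cctaaatgctgcAATAAAgaggcgtagatg
Pou3f1, chr4:124660614-124660643, plus strand: tatagtaaatattttattactcacataaac
AATAAA stands in 5 of the 7 windows, ATTAAA in that of Otx2, and neither in that of Pou3f1. Of 45047 annotated protein-coding transcripts, 43.9% hold AATAAA in their last 30 bases, 11.9% ATTAAA and 54.4% at least 1 of them, counted on the sense strand.

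Utf1 was past 2-fold between the media in single cells and in pools, Sox2 in pools only, and Pou5f1, on few molecules, in single cells only. Sall4 and Utf1 were past it between NSC and the ESCs of both media, and Sox2 only against ESC-FCS, at the limit. Sox2 had the most molecules of the members in NSC. Among 5007 genes with at least 20 molecules over ESC-FCS and ESC-2i, 8.17% were higher in ESC-FCS by at least 2-fold and 14.5% lower. Of the 4 members with that many molecules Utf1 was higher, Pou5f1 lower, and Sox2 and Sall4 lay between. Between NSC and ESC-2i, where 19.3% of 4803 genes were higher and 24.3% lower in NSC, 3 members were counted, and Sall4 and Utf1 were lower while Sox2 lay between. Between NSC and ESC-FCS, where 20.9% of 3600 genes were higher and 18.4% lower, all 3 were lower. Sox2 lay at the limit, at a ratio of 0.488, and was no longer lower by 2-fold without NSC batch 1 (0.544), without ESC-FCS batch 1 (0.540), with cells of at least 2000 molecules (0.531) or without mitochondrial genes (0.504). Between the pools, where 19.4% of 8013 genes were higher in ESC-FCS and 31.9% lower, Sox2 and Utf1 were higher and Sall4 lay between. Libraries of 1 medium also differed over all genes. Control cells were higher than ESC-FCS cells by at least 2-fold for 15.9% of genes, Sox2 among them, and lower for 9.23%. The ESC-2i pools were higher than ESC-2i cells for 38.8% of genes, Sall4 among them, and lower for 15.0%, with Pou5f1 and Sox2 among them.

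The Utf1 level rested on many molecules in serum. In ESC-2i it was at 1.30 molecules per 10000 (0.961 to 1.73, 48 molecules) and in ESC-FCS at 7.32 (6.25 to 8.53, 166 molecules), a 5.62-fold higher level in serum (4.05 to 7.92). The 2 library batches gave 1.43 and 1.19 in ESC-2i and 7.75 and 6.74 in ESC-FCS, so the batches did not overlap, and the 4 ratios between batches ranged from 4.70 to 6.54. The separate libraries gave the same direction. The ESC-2i pools were at 0.980 and 0.606 molecules per 10000, the ESC-FCS pool at 9.66 and the 2 batches of control cells at 4.98 and 6.78, which made the ratio 12.2 between pools (9.29 to 16.2) and 7.204 with the control cells in place of the ESC-FCS pool. Between libraries of 1 medium the Utf1 ratio was 0.778 for control cells over ESC-FCS cells, 1.32 for the ESC-FCS pool over ESC-FCS cells and 0.607 for the ESC-2i pools over ESC-2i cells, each closer to 1 than any ratio between media. The largest ratio within a medium was 1.70, for the ESC-FCS pool over the control cells. Reads per Utf1 molecule were 3.01 in the ESC-2i pools, 6.83 in the ESC-FCS pool, 8.44 in ESC-2i cells and 14.5 in ESC-FCS cells. The part of this read depth in the ratios was not tested.

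Utf1 was found in 22 of 33 ESC-2i cells and 29 of 33 ESC-FCS cells. The lowest, median and highest cell held 0, 1 and 7 molecules in ESC-2i and 0, 4 and 19 in ESC-FCS. Expected shares after thinning every cell to 2000 molecules, which removes the difference in depth, were 23.0% of 33 ESC-2i cells and 71.0% of 32 ESC-FCS cells, against 66.7% and 90.6% of the same cells unthinned. In NSC no Utf1 molecule was seen in 41 cells, and the limit lies 37.1-fold below the ESC-FCS level and 6.597-fold below the ESC-2i level. With counting error in both groups, NSC was at least 29.8-fold lower than ESC-FCS and at least 5.16-fold lower than ESC-2i.

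**Figure D1:**
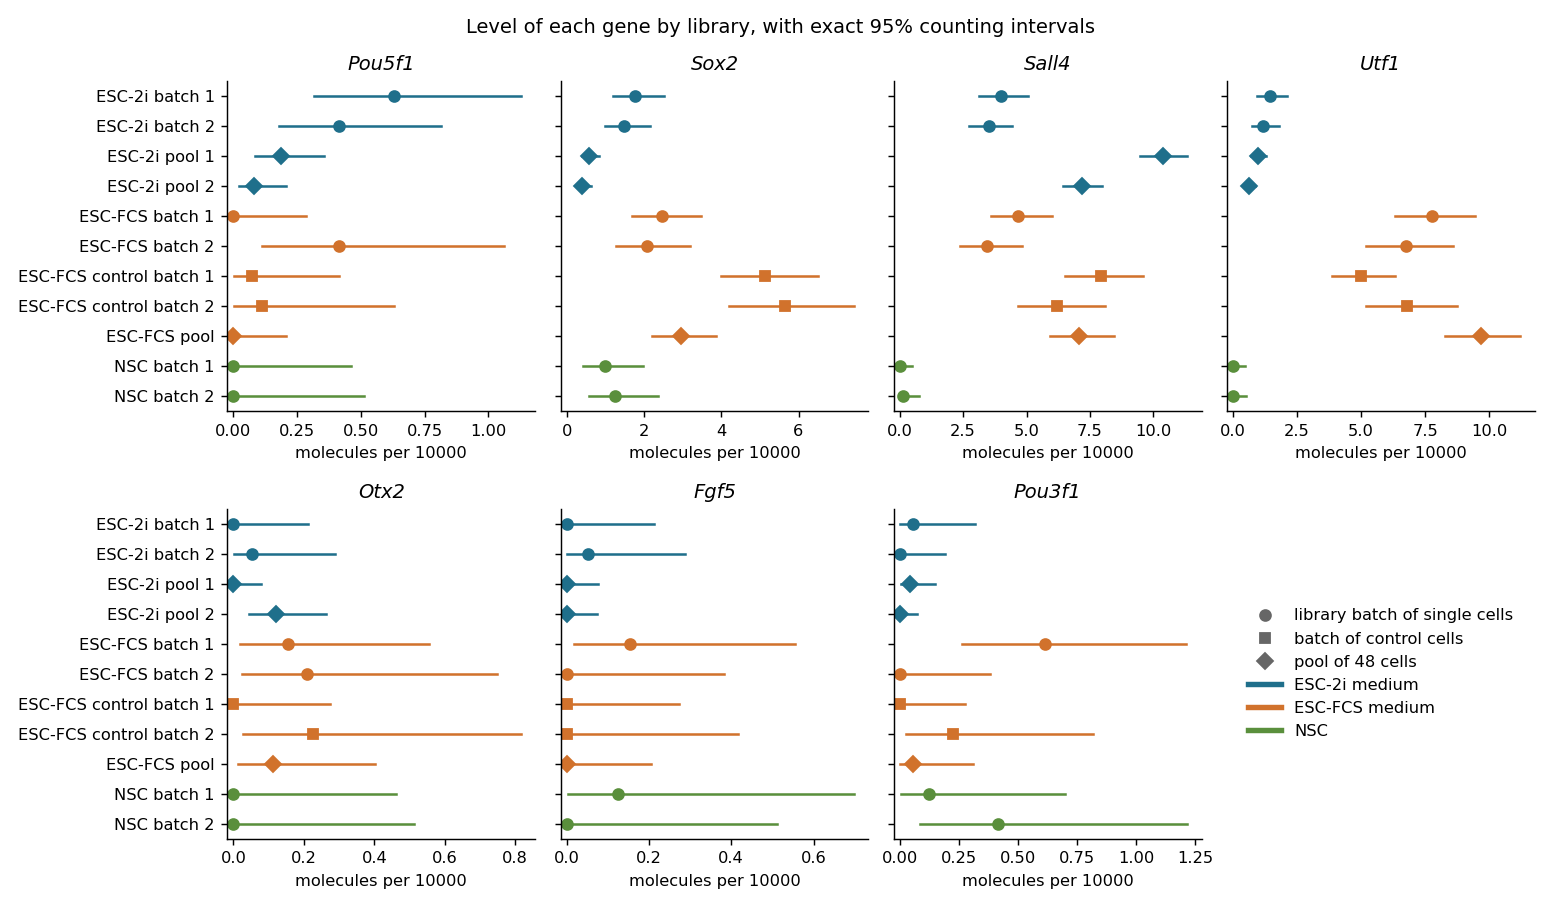
Level of each of the 7 genes (molecules per 10000 molecules on genes, a scale of its own in each panel) in the 11 libraries, as points with exact 95% counting intervals. Colour marks the medium or NSC, and circles, squares and diamonds mark batches of single cells, batches of control cells and pools of 48 cells. For Utf1 the 4 ESC-2i libraries lie between 0.606 and 1.43 and the 5 ESC-FCS libraries between 4.98 and 9.66, while the 3 genes of the lower row stay near 0.

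Sall4 had the ratio between media nearest to 1 of the 4 members counted, and NSC held 1 molecule of it. Its level was 3.75 molecules per 10000 in ESC-2i (3.15 to 4.43, 138 molecules) and 4.15 in ESC-FCS (3.35 to 5.07, 94 molecules), a ratio of 1.11 (0.842 to 1.45). The batches overlapped between media, at 4.01 and 3.51 in ESC-2i and 4.68 and 3.42 in ESC-FCS. Molecules were found in 32 of 33 ESC-2i cells and 25 of 33 ESC-FCS cells, at a median of 4 and 2 per cell, and thinned to 2000 molecules the shares were 53.0% and 48.1%. The libraries made apart held more of it: 10.4 and 7.17 per 10000 in the ESC-2i pools, 7.09 in the ESC-FCS pool and 7.26 over all control cells. The ratio between pools was 0.810 (0.667 to 0.977), while the ESC-2i pools stood 2.34-fold above the ESC-2i cells (1.95 to 2.82) and the control cells 1.75-fold above the ESC-FCS cells (1.35 to 2.28), so libraries of 1 medium differed by more than the media did. In NSC 1 molecule, supported by 1 read and placed in an intron, was seen in 41 cells, a level 63.0-fold below ESC-FCS (11.0 to 2514) and 56.9-fold below ESC-2i (10.0 to 2263).

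Sox2 was the member with the most molecules in NSC. It stood at 1.63 molecules per 10000 in ESC-2i (1.24 to 2.10, 60 molecules), 2.29 in ESC-FCS (1.71 to 3.01, 52 molecules) and 1.12 in NSC (0.652 to 1.79, 17 molecules). Batches were at 1.78 and 1.495 in ESC-2i, 2.46 and 2.07 in ESC-FCS and 1.00 and 1.248 in NSC. These values did not overlap between populations, but the counting intervals of the batches did. The ratio of ESC-FCS to ESC-2i was 1.41 (0.952 to 2.08), that of NSC to ESC-2i 0.687 (0.376 to 1.19) and that of NSC to ESC-FCS 0.488 (0.265 to 0.858), so of the neighbours in the order ESC-FCS, ESC-2i, NSC neither pair differed beyond its counting interval. Of the 17 NSC molecules, 2 lay about 11 kb past the gene at sites classed as antisense, and without such sites the ratio of NSC to ESC-FCS was 0.431. Cells with Sox2 numbered 24 of 33 in ESC-2i, 21 of 33 in ESC-FCS and 12 of 41 in NSC. Thinned to 2000 molecules, leaving out 1 ESC-FCS cell and 8 NSC cells, the shares were 26.8%, 36.8% and 20.6%, against 72.7%, 65.6% and 36.4% of the same cells unthinned.

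The separate libraries placed Sox2 further apart. The ESC-2i pools were at 0.584 and 0.404 molecules per 10000, the ESC-FCS pool at 2.96 and the batches of control cells at 5.13 and 5.65, which gave a ratio of 6.00 between pools (3.99 to 9.07) and 10.8 with the control cells in place of the ESC-FCS pool. Both ratios are taken over the same ESC-2i pools. Those pools held 2.88 reads per Sox2 molecule, against 11.3 in the ESC-FCS pool, 6.95 in the control cells and 12.3 in ESC-2i cells. The part of this read depth in the ratios was not tested. Libraries of 1 medium also differed, with the ESC-2i pools at 0.302 of the ESC-2i cells (0.203 to 0.4496) and the control cells at 2.33 times the ESC-FCS cells (1.67 to 3.29). In bulk pools a lower share of cells with the transcript and less RNA per cell cannot be told apart.

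Pou5f1 gave few molecules everywhere. There were 19 in ESC-2i, 0.516 per 10000 (0.311 to 0.805), and 4 in ESC-FCS, 0.176 per 10000 (0.0481 to 0.452), a ratio of 0.342 whose interval reached 1 (0.0846 to 1.03). All 4 ESC-FCS molecules came from batch 2, at 0.415 per 10000, while batch 1 held none. Against the ESC-2i cells, batch 2 on its own gave a ratio of 0.804. In ESC-2i the batches were at 0.631 and 0.413 per 10000. Cells with Pou5f1 numbered 14 of 33 in ESC-2i, with a highest cell of 3 molecules, 3 of 33 in ESC-FCS and 0 of 41 in NSC. The limit for NSC, 0.198 per 10000, lies 2.61-fold below the ESC-2i level. With counting error in both groups, the exact bound is only 1.92-fold, which does not reach 2-fold. The separate libraries were lower still, with 13 molecules in the ESC-2i pools (0.133 per 10000), 2 in the control cells (0.0897) and 0 in the ESC-FCS pool. These 13 and 2 molecules rested on 17 and 4 reads, against 284 reads for the 19 molecules of ESC-2i cells. All 23 molecules of the ESC cells lay at 1 site, 3 bases past the annotated end, and the last 250 bases of the Pou5f1 transcript share a stretch of 29 identical bases with 1 other annotated gene, Gm5712, while those of the other 6 genes match none. The methods state that reads without a unique place were removed, and the part of this in the low count was not tested.

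**Figure D2:**
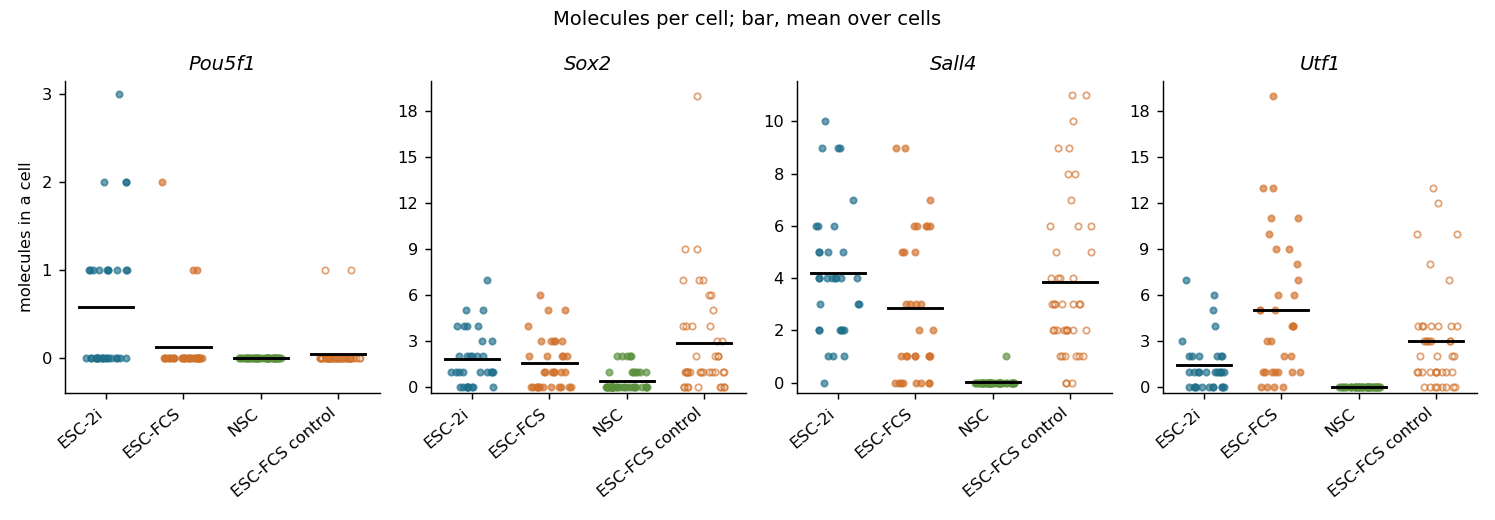
Molecules of Pou5f1, Sox2, Sall4 and Utf1 in each cell (points, spread sideways for sight) of ESC-2i, ESC-FCS, NSC and the ESC-FCS control cells (open circles), with the mean over cells as a bar. Utf1 reaches 19 molecules in an ESC-FCS cell and 7 in an ESC-2i cell, and NSC cells hold 0 molecules of Pou5f1 and Utf1 and at most 2 of Sox2.

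Otx2, Fgf5 and Pou3f1, the formative genes, were near the limit of detection in both media. Otx2 gave 1 molecule in ESC-2i and 4 in ESC-FCS, each in a cell of its own, a ratio of 6.50 whose interval ran from 0.643 to 320.1, and none in NSC. The ESC-2i pools held 6 Otx2 molecules, all in pool 2, the ESC-FCS pool 2 and the control cells 2, which is 0.0616, 0.112 and 0.0897 per 10000. Fgf5 gave 1 molecule in ESC-2i, 2 in a single ESC-FCS cell and 1 in NSC, and none in the control cells and pools. Only the 2 in ESC-FCS lay at the annotated end, and the other 2 lay in introns. The ESC-FCS cell with Fgf5 was also the cell with the most Utf1, 19 molecules, and held 1 of Pou3f1. ESC-2i cells gave 1 Pou3f1 molecule, ESC-FCS cells 8 and NSC cells 4, but 6 of the 8 came from 1 ESC-FCS cell at a site 9241 bases past the annotated end, which the ESC-2i molecule shared. The ratio of 13.0 between the media (1.74 to 577) thus rests on that cell, whose molecules do not count as independent cells. The authors assigned reads to a gene also when they lay some way downstream of it. At the annotated 3′ UTR of Pou3f1, 2 molecules remained in ESC-FCS, 0 in ESC-2i and 4 in NSC. At this depth a difference in Otx2, in Fgf5 or in Pou3f1 at its annotated end was not detectable between the media.

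Levels set per ERCC spike-in molecule instead of per molecule on genes raise each ratio of ESC-FCS to ESC-2i by 2.06-fold, a log2 shift of 1.04, because spike-ins made up 3.99% of molecules in ESC-FCS and 7.90% in ESC-2i. On that scale Utf1 was 11.6-fold higher in ESC-FCS, Sox2 2.90-fold and Sall4 2.28-fold, while the ratio of Pou5f1 was 0.705, which is no longer lower by 2-fold. The ESC-2i pools held 0 ERCC molecules, so ratios over them could not be set on that scale.

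**Figure D3:**
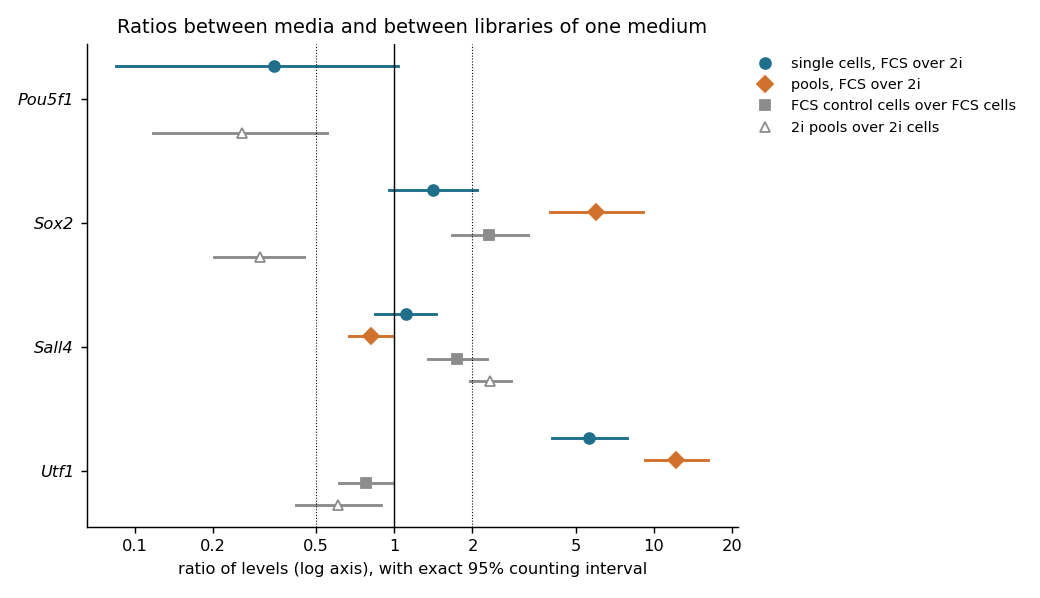
Ratios of levels (log axis) with exact 95% counting intervals for the 4 members with enough molecules. Blue circles and orange diamonds compare serum with 2i in single cells and in pools, grey squares and open triangles compare libraries of 1 medium, and dotted lines mark 2-fold. For Utf1 both ratios between media, 5.62 and 12.2, lie to the right of 2 and the grey ones between 0.5 and 1, while for Sox2 and Sall4 the grey ratios reach 2.33 and 2.34.

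Within a population no member was called variable between cells. In the test of Brennecke and colleagues, which sets the squared coefficient of variation (CV2) of a gene against that of the spike-ins with a margin of 0.25, 0.719% of 3616 genes were called variable in ESC-2i, 3.85% of 2026 for ESC-FCS and 2.16% of 1157 for NSC at an adjusted p under 0.1. Pou5f1, Sox2, Sall4 and Utf1 could be tested in ESC-2i and Sox2, Sall4 and Utf1 in ESC-FCS, and none of the 7 tests was called by it (Benjamini-Hochberg adjusted p = 1 in each), nor did any pass an unadjusted 0.05. Utf1 in ESC-2i came closest, with a CV2 of 1.35 against 1.09 expected under the test and an unadjusted p of 0.169. Sall4 in ESC-2i was the most even, with a CV2 of 0.268 against 0.584 expected. Both expected values include the margin, so neither is the spike-in noise alone. On simulated counts the test called many genes in ESC-FCS that had not been made variable, so its calls there are the least certain. In NSC no member reached the minimum mean of 0.5, and Otx2, Fgf5 and Pou3f1 reached it nowhere.

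Members were also counted within the same cell. A median of 3 of the 7 genes was detected per cell in ESC-2i and in ESC-FCS and 0 in NSC, where 24 of 41 cells held none of them and 16 held 1. No ESC held more than 5. Of 33 ESC-2i cells, 23 held Sox2 and Sall4, 21 Sall4 and Utf1, 15 Sox2 and Utf1 and 9 Pou5f1 and Utf1. Of 33 ESC-FCS cells, 23 held Sall4 and Utf1, 18 Sox2 and Utf1 and 17 Sox2 and Sall4. All 14 ESC-2i cells with Pou5f1 also held Sall4, and 11 of them Sox2. Over all 33 cells, Sall4, Sox2 and Utf1 were found in 32, 24 and 22 of ESC-2i. In ESC-FCS they were found in 25, 21 and 29 of 33. The counts of pairs are not read beyond these shares. No test was made of these counts.

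Most molecules of the abundant members ended within a few bases of the annotated transcript end. For Utf1, at chr7:139945107 in ESC-2i and ESC-FCS cells and 1 base further in the separate libraries, the share was 97.9% in ESC-2i (88.9% to 99.9%) and 97.0% in ESC-FCS (93.1% to 99.0%). For Sall4, at chr2:168748337 on the minus strand, it was 92.0% in ESC-2i (86.2% to 96.0%) and 94.7% in ESC-FCS (88.0% to 98.3%). Sox2 was the least uniform, with 80.0% in ESC-2i (67.7% to 89.2%), 84.6% in ESC-FCS (71.9% to 93.1%) and 70.6% in NSC (44.0% to 89.7%) at chr3:34652455, so its main site was shared by the 3 populations within counting error. The NSC share is taken over all Sox2 molecules, with those at the antisense sites past the gene among them, which lowers it.

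A second Sox2 site lay in the 3′ UTR 987 bases before the annotated end, at chr3:34651474. It held 7 of 60 molecules in ESC-2i, 4 of 52 in ESC-FCS, 2 of 17 in NSC and 10 of 48 in the ESC-2i pools, or 11.7%, 7.69%, 11.8% and 20.8% (10.5% to 35.0%). It held 3 of 119 molecules in the control cells, 2.52% (0.523% to 7.19%). In the ESC-FCS pool it held 4 of 53, 7.55% (2.09% to 18.2%), counting 1 at nearby chr3:34651458. The interval of the ESC-2i pools overlapped that of the ESC-FCS pool and not that of the control cells. Control cells and ESC-2i pools differ in both medium and kind of library, which cannot be told apart here. The main site held 96.6% of the Sox2 molecules of the control cells. A second Sall4 site, 1464 bases before the end in the 3′ UTR, held 32 of 853 molecules in the ESC-2i pools, 3 of 94 in ESC-FCS and 0 of 138 in ESC-2i. It held 2 of 162 in control cells, at nearby chr2:168749801, and 0 of 127 in the ESC-FCS pool (0% to 2.86%), against 3.75% (2.58% to 5.25%) in the ESC-2i pools. In the ESC-FCS pool 1 molecule lay at chr2:168749760. In an intron of the coding transcripts used here, at chr2:168753553 to 168753555, lay 26 further molecules of these pools. The authors classed that place as downstream of a transcript end, not as intron. That place also held 2 of 138 in ESC-2i, 1 of 94 in ESC-FCS, 3 of 162 in control cells and 2 of 127 in the ESC-FCS pool. In ESC-2i cells 4 molecules lay in a coding exon at chr2:168755848. The windows that end at the second sites are shown because neither holds a poly(A) signal.
Sox2 second site, chr3:34651445-34651474, plus strand: aaagaggagagtaggaaaaatctgataatg
Sall4 second site, chr2:168749796-168749825, minus strand: tgaaaaatggaggaaaagtgaaaaacaaca
In the transcript, 12 of the next 20 bases after the Sox2 site and 17 of the next 20 after the Sall4 site are A, a stretch to which an oligo-dT primer can anneal. The authors removed reads next to regions rich in A over set limits, and whether the remaining molecules at these sites ended there was not tested.

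**Figure D4:**
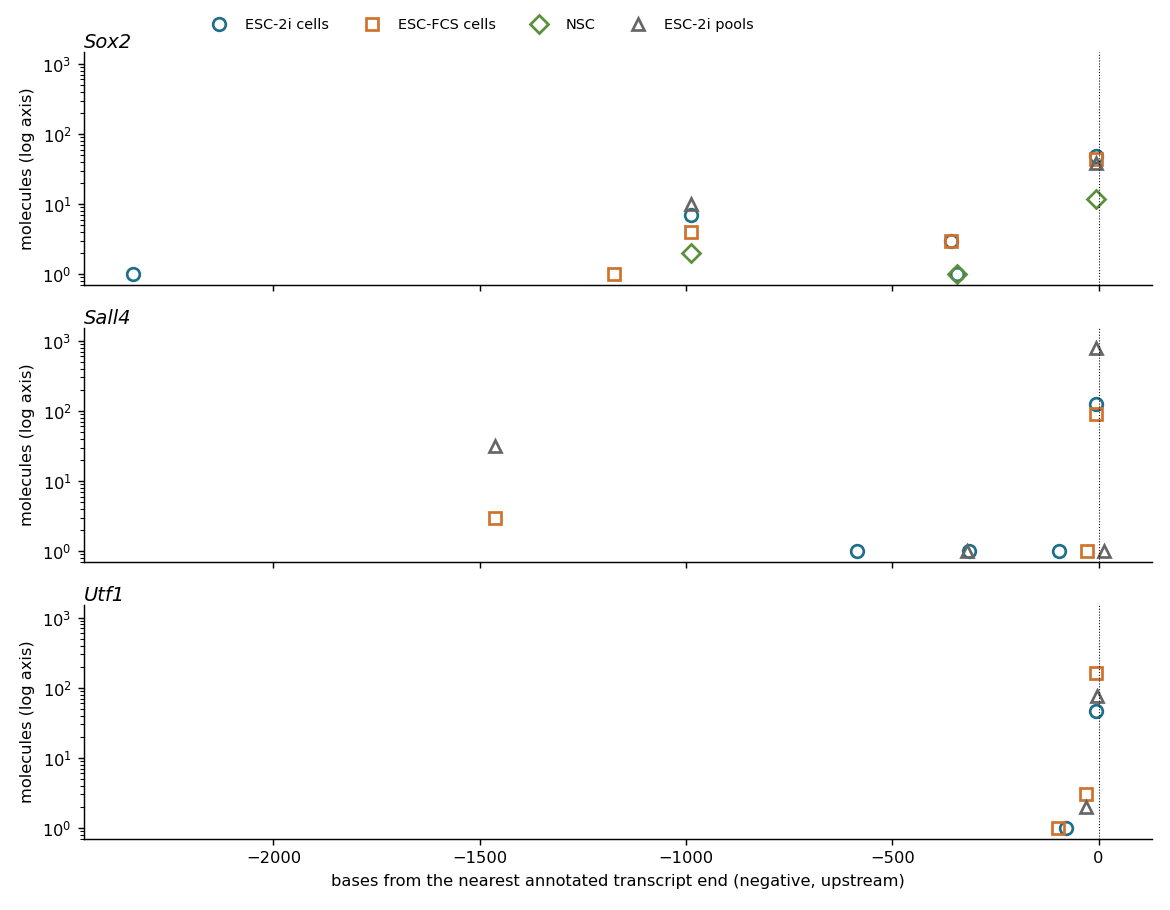
Molecules at each site (log axis) of Sox2, Sall4 and Utf1 by distance in bases from the nearest annotated transcript end, for ESC-2i cells, ESC-FCS cells, NSC and the 2 ESC-2i pools. The leading site of each gene lies within 6 bases of the annotated end, and Sox2 has a second site 987 bases and Sall4 1464 bases upstream.

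The listed genes around the members differed by list. Of 12 naive factors 11 had 20 molecules over both media, and 0 were higher in ESC-FCS by 2-fold and 4 lower. Their median ratio was 0.660 against 0.956 over all genes, of which 8.17% were higher and 14.5% lower. Between the pools, where 19.4% of all genes were higher and 31.9% lower, 2 of 12 naive factors were higher and 6 lower. The median of these factors was 0.477 there, against 0.777 over all genes. Among the most abundant, the nuclear receptor gene Esrrb was at 6.22 per 10000 in ESC-FCS and 8.14 in ESC-2i, Tfcp2l1, a factor downstream of LIF, at 2.74 and 8.63, Klf2 at 4.19 and 4.29 and Fbxo15 at 1.72 and 2.61. Esrrb turned its direction between the pools, with a ratio of 0.764 in cells (0.621 to 0.936) and 1.68 in pools (1.36 to 2.05), while the ratio in pools was 0.335 for Tfcp2l1, 0.565 for Klf2 and 0.274 for Fbxo15. Of 22 formative and primed genes 9 could be counted, and 6 were higher, 1 lower, with a median ratio of 3.03. The median was not above 1 between the pools: 14 could be counted there, and 5 were higher and 2 lower in the ESC-FCS pool, with a median of 0.844 against 0.777 over all genes. Dnmt3l, the cofactor of the de novo DNA methyltransferases, was at 3.35 in ESC-FCS and 0.652 in ESC-2i. Lefty1, an inhibitor of Nodal signalling, was at 4.72 and 0, which is 58.0-fold above the limit for ESC-2i. With counting error in both groups, Lefty1 was at least 46.3-fold higher in ESC-FCS. Between the pools the ratio was 2.00 for Dnmt3l and 2.30 for Lefty1, which stood at 0.729 per 10000 in the ESC-2i pools and at 1.34 in the control cells. The Nodal co-receptor gene Tdgf1 was at 5.03 and 5.24 and the ETS factor gene Etv5 at 3.26 and 4.04. Between the pools Tdgf1 was 2.56-fold higher in serum (2.10 to 3.11), and the ratio of Etv5 was 0.533. Dnmt3l and Lefty1 thus shared the direction of Utf1, while Otx2, Fgf5 and Pou3f1 had too few molecules to be counted beside them.

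Of 18 partners of Oct4, Sox2 and Sall4, 17 could be counted and 3 were higher and 1 lower in ESC-FCS. Their median ratio was 0.983, against 0.956 over all genes. Between the pools 4 of 18 were higher and 7 lower, with a median of 0.745 against 0.777 over all genes. The counts between the pools were near the shares over all genes, 19.4% higher and 31.9% lower. Nanog, the third factor of the core circuit, was at 3.00 per 10000 in ESC-FCS and 4.67 in ESC-2i, a ratio of 0.642 (0.478 to 0.855), and Trim28, a corepressor, at 13.4 and 11.1. Between the pools the ratio of Nanog was 0.429, and Trim28 turned its direction, with a ratio of 1.201 in cells (1.03 to 1.397) and 0.742 in pools (0.660 to 0.833). In NSC 9 of 15 partners were lower than in ESC-2i and 1 was higher, and 11 of 11 naive factors were lower. Over all genes 24.3% were lower and 19.3% higher. Of the relatives of the members, in NSC 3 of 5 were higher than in ESC-2i. Sall2 was at 1.98 per 10000 in NSC and 0.0543 in ESC-2i and Sall3 at 1.78 and 0.271, the reverse of Sall4, and Sox3, which was named after its values were seen, at 1.71 and 0. Sall1 was at 0.263 and 0.652, and Fgf4, a target of Oct4 and Sox2, at 0 and 2.17.

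**Figure D5:**
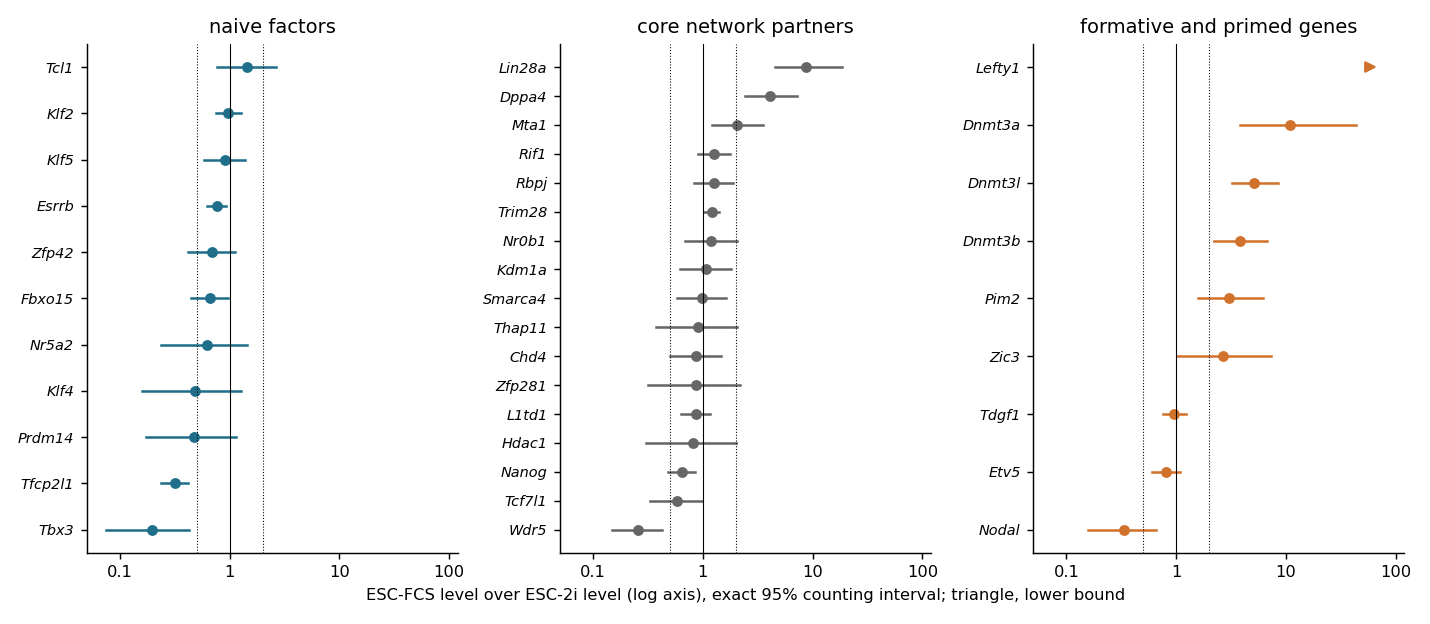
ESC-FCS level over ESC-2i level (log axis) with exact 95% counting intervals for the listed naive factors, network partners and formative and primed genes with at least 20 molecules over both populations. Dotted lines mark 2-fold, and the triangle is Lefty1, which had no molecule in ESC-2i, so its ratio has no upper end. Of the naive factors 4 of 11 lie at or below 0.5 and of the formative and primed genes 6 of 9 lie above 2.

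The 3 members with at least 100 molecules over the 11 libraries were compared with 4552 other genes by Pearson's r of log2(molecules per 10000 + 0.1). The libraries are 8 batches of single cells and 3 pools, may share cultures and differ in depth, so the values describe these libraries only. Nearest to Sall4 were Trim6 (r = 0.98), Acot9 (0.97) and Gdf3 (0.97), each at 0 in NSC. Nearest to Utf1 were Gins1 (0.98), Bcl3 (0.95) and Ifitm1 (0.95), the last of which was at 4.23 molecules per 10000 in ESC-2i, 14.4 for ESC-FCS and 0 for NSC. Nearest to Sox2 were Tipin (0.96), Pfn1 (0.95) and Ssr2 (0.94). Between the members r was 0.79 for Sall4 and Utf1, 0.66 for Sox2 and Utf1 and 0.23 for Sox2 and Sall4. Utf1 ranked 431 among the genes compared with Sall4 and 347 among those compared with Sox2.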

How the data were processed

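The authors aligned the reads with GSNAP to GRCm38, removed reads without a unique place or next to A-rich stretches, merged near-identical UMIs within a gene and nearby sites, and deposited counts of molecules (UMIs) and reads per poly(A) site and cell, without normalization. In the files of single samples the headers of site class and distance to the annotated end are swapped, and both were read by content. Sums over sites differ from the deposited table in 4 of 2111752 entries, 0 of them for the members. HTSeq and R 3.0.2 stand in the submitters' processing notes. Genes and lists were chosen with earlier results of these data known. Levels are pooled molecules per 10000 on genes, for the 107 cells of the deposited table of genes and for control cells with at least 1000 molecules. Antisense sites in or before a gene were left out, as in that table. Intervals are exact (Poisson, Clopper-Pearson, conditional binomial for ratios). Members, up to 4 genes of each list by pooled level, and the 3 genes most alike were named. Sites were placed with the basic protein-coding transcripts of GENCODE M21, and transcript ends compared with BLAST+ 2.17.0. The Brennecke test was rewritten (Python 3.11.15, statsmodels 0.14.6) and tested on simulated counts with 200 genes made variable. Alternatives were other cell limits, scalings, left-out batches, spike-in sets, margins and merged sites.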

Additional observations from a re-analysis of the deposited data

How the results depend on the processing

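No paired analysis was possible because the shared well numbers only name plate positions and the populations were compared by values with no test. No ratio of a member past 2-fold turned its direction. Setting levels per 100 ERCC molecules moved the ratio of ESC-FCS to ESC-2i to 2.90 for Sox2, 2.28 for Sall4 and 11.6 for Utf1, and that of NSC to ESC-FCS to 0.193 for Sox2. Leaving out 1 library batch at a time gave 0.280 to 0.804 for Pou5f1, where ESC-FCS without batch 2 holds no molecule, 1.27 to 1.53 for Sox2, 0.914 to 1.25 for Sall4 and 5.11 to 6.17 for Utf1 between ESC-FCS and ESC-2i. Against NSC it gave 0.616 to 0.766 and 0.437 to 0.544 for Sox2 and 0.0164 to 0.0370 and 0.0141 to 0.0335 for Sall4, over ESC-2i and ESC-FCS. Between pools, with either ESC-2i pool left out, the ratio was 5.07 to 7.32 for Sox2, 0.683 to 0.988 for Sall4 and 9.85 to 15.9 for Utf1, and with the control cells in place of the ESC-FCS pool 10.8 for Sox2 and 7.204 for Utf1. Merging sites within 25 nt moved the share of Utf1 at its main site in the ESC-2i pools from 97.4% to 100%. Genes called variable ranged over the alternatives from 5 to 117 for ESC-2i (26 as reported), from 36 to 226 for ESC-FCS (78) and from 16 to 82 for NSC (25). Without library batch 2 they were 9 for ESC-2i and 78 for NSC. No member was called in 41 repeats of its test, with adjusted p from 0.293 to 1 in ESC-2i by the Brennecke test. With a fold of 1.5 or with at least 50 molecules, 954 or 110 genes were higher in ESC-FCS than in ESC-2i instead of 409, and 1311 or 217 lower instead of 725. For NSC over ESC-2i these were 1447 or 267 higher instead of 927 and 1619 or 428 lower instead of 1168, and for NSC over ESC-FCS 1110 or 193 instead of 752 and 992 or 195 instead of 663. An alternative left out sites classed as antisense downstream of a gene, which was chosen after seeing the data, and it kept all 8 ratios within their intervals. Depth limits Otx2, Fgf5, Pou3f1 and Pou5f1, and 1 cell holds most of the Pou3f1 molecules of ESC-FCS.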
